A study of Mus musculus with 2 samples.

Results

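DEAD and DEAH box proteins are ATP-dependent RNA helicases, named after a conserved run of amino acids in their motor domain. They unwind RNA duplexes and remodel RNA-protein complexes, and different members act in splicing, ribosome assembly, mRNA export, translation and mRNA decay. N6-methyladenosine (m6A) is a methyl mark that the METTL3 writer complex places on adenosine in mRNA, mostly within a consensus known as DRACH. The transcripts of these helicase genes were examined for where, and at what level, such marks were listed.

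The members are the genes whose symbol is Ddx or Dhx followed by a number and at most 1 letter. The tables listed 46 such genes at 308 positions in replicate 2, of 8057 named genes and 50099 positions in all. In replicate 1 they listed 37 of these genes at 182 positions, of 5699 genes and 26441 positions. No gene was listed in replicate 1 only. A site was a listed position with at least 20 reads in replicate 2, and its replicate 1 value was taken where the same position of the same transcript version was listed. This gave 133 sites in 33 helicase genes, against 15979 sites in all other named genes. By gene, 33 of the 46 listed helicase genes had a site, beside 3919 of all 8057 named genes. Whether these shares differ was not tested.

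The RNA came from day 6 retinal organoids of the Rx:GFP line, a mouse stem cell line in which green fluorescent protein reports the eye-field gene Rax. All organoids were wild type, were grown with 5% KSR and received 0.1 µM AGN for 6 days. Each of the 2 libraries held poly(A)-selected RNA sequenced directly on a nanopore flow cell for about 48 h with the RNA002 kit, so each read is a native RNA strand. There is 1 group with n = 2 and no untreated, mutant or METTL3-deficient control, so the level reported at an unmethylated adenosine was not measured. Nothing in the labels says whether the libraries came from separate cultures, and their spread may be technical. Among eye-field and retinal progenitor markers, 8 had a site in replicate 2. None of the 6 pluripotency, 5 mesoderm and endoderm and 2 germ cell markers was listed. For neurons 1 of 4 markers was listed and for retinal pigment epithelium 2 of 4, none with a site.

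Helicase positions had a median of 11 reads in replicate 1 and 17 in replicate 2, beside 10 and 12 over all positions. At the 133 sites replicate 2 had 20 to 373 reads, with a median of 37. Of these sites, 94 were listed in replicate 1, with 5 to 176 reads and a median of 17, and 38 sites in 13 genes had at least 20 reads in both libraries. Reads over a position depend on how many organoid cells express a gene and on the RNA per cell, which cannot be told apart in bulk RNA.

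Every listed position lies on a motif of 5 bases with the target adenosine in its middle, here in DNA letters. The motif that begins with A is AGACT, and the remaining 3 begin with G and end in A (GGACA), in T (GGACT) or in C (GGACC). The sequence around helicase sites is known here only where motifs lie close together. There were 7 pairs of neighbouring sites no more than 20 nt apart on a transcript, a limit chosen after the values had been seen. They are shown because they set sites of 1 transcript, covered by nearly the same reads, beside each other. The letters are the deposited motifs placed by their positions, n marks bases that are not listed, and capitals mark the middle adenosine of each motif.
Ddx56, positions 1794 and 1798: ggAcagAct
Dhx15, positions 477 and 486: ggAcannnnggAca
Ddx42, positions 2951 and 2960: ggAcannnnggAca
Ddx49, positions 784 and 796: ggAccnnnnnnnggAct
Ddx21, positions 2641 and 2657: ggActnnnnnnnnnnnggAcc
Ddx28, positions 2040 and 2060: ggActnnnnnnnnnnnnnnnggAcc
Ddx20, positions 2731 and 2751: ggActnnnnnnnnnnnnnnnggAca

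The value deposited for each position is the fraction modified, from 0 to 1, a level of m6A whose denominator is not stated. Dhx15 encodes a DEAH helicase that takes apart the spliceosome at the end of splicing. Its 2 GGACA motifs 9 nt apart had fractions modified of 0.217 and 0.750 in replicate 1, over 31 reads each, and 0.171 and 0.747 in replicate 2, over 95 reads each. The downstream adenosine was thus higher by 0.533 and 0.576, while neither site differed by more than 0.05 between libraries. Ddx42, whose product associates with the SF3b part of the U2 particle, carries the same motifs at the same spacing. There the fractions were 0.750 at both sites in replicate 1 over 9 reads, and 1.00 upstream and 0.722 downstream in replicate 2 over 28 reads, so no stable difference was seen at this depth.

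In Ddx56, a nucleolar helicase of large ribosomal subunit assembly, the neighbouring motifs share a base. The GGACA at position 1794 had 0.957 in replicate 1 and 0.982 in replicate 2. The AGACT 4 nt downstream had 0.5 and 0.552, over the same 24 and 60 reads. In Ddx49, the GGACC at position 784 had 0.526 and 0.533, and the GGACT at position 796 had 0.176 and 0.190, over 28 and 31 reads. In these transcripts and in Dhx15 the gap between neighbours was larger than the difference between libraries. The 2 motifs of the Ddx56 pair also lie apart in other genes. There the medians were 0.710 and 0.667 at GGACA, and 0.25 and 0.263 at AGACT. They were close for the motifs of Ddx49, with 0.25 and 0.231 at GGACC and 0.25 and 0.230 at GGACT. The pairs of Ddx20, Ddx21 and Ddx28 had 7 to 12 reads in replicate 1. In Ddx20 the downstream GGACA was higher in both libraries, with 0.857 against 0.5 and 0.667 against 0.267. In other genes GGACA was higher than GGACT too, with medians of 0.710 against 0.25 and 0.667 against 0.230. In Ddx21 both sites lay between 0.182 and 0.241 in both libraries. For Ddx28 the upstream site moved from 0.444 over 9 reads to 0.0476 over 24 reads, so its order with the downstream site (0.571 and 0.643) held in both libraries while the size of the gap did not.

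Across the 133 helicase sites, GGACA made up 33.8% (95% Wilson interval 26.3% to 42.2%), AGACT 24.8% (18.2% to 32.8%), GGACT 23.3% (16.9% to 31.2%) and GGACC the remaining 24 sites (12.4% to 25.4%). The intervals cover counting error only. In other genes the shares were 35.6%, 18.1%, 24.2% and 22.1%, with the widest gap at AGACT. That gap depended on depth: AGACT made up 15.8% of helicase sites and 15.7% of other sites with 20 reads in both libraries, and 18.2% and 16.8% with 50 reads in replicate 2. The motif GGACA stood apart in level. Its median was 0.704 (replicate 1) and 0.722 (replicate 2), while the medians at the other motifs lay between 0.222 and 0.365. Differences between motif means made up 23.3% of the variance of the fraction among helicase sites and 21.8% in other genes.

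Within a motif, the helicase medians lay close to those of other genes. At GGACA the helicase median minus the median of other genes was -0.006 in replicate 1 (34 sites) and 0.0555 in replicate 2 (45 sites). At GGACT it was 0 (25 sites) and 0.037 (31 sites), and at GGACC -0.0278 (17 sites) and 0.0246 (24 sites). For these motifs the replicates disagreed in sign or gave no difference, and the exact paired permutation test over replicates, two-sided, gave p = 1. The mean difference changed sign with the choice of sites at all 3 motifs. At GGACA it was -0.203 at sites with 20 reads in both libraries (18 sites, 8 genes), against 0.0248. At GGACT it was -0.091 with 50 reads in replicate 2 (12 sites, 9 genes), against 0.0185. At GGACC it was 0.0933 with 20 reads in both (6 sites, 6 genes), against -0.0016.

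AGACT was the motif at which helicase sites were higher in both libraries. The median was 0.365 in replicate 1 (18 sites, 12 genes) and 0.308 in replicate 2 (33 sites, 19 genes), beside 0.250 and 0.263 in other genes. The difference was 0.0798 ± 0.0499 (SD, n = 2), and the exact paired permutation test, two-sided, gave p = 0.5, the smallest value that 2 replicates allow. The replicate 1 sites are a part of the replicate 2 sites, at this motif and the others. The SD and the test therefore cover the spread between libraries, not that between genes or sites. AGACT was also 1 of 4 motifs compared. The difference remained positive under the alternatives run, from 0.0288 without a minimum to 0.339 with 20 reads in both libraries, where it rests on 6 sites in 4 genes. The share of sites with a fraction of at least 0.5 in replicate 2 was 12 of 33 at AGACT, against 24.0% over all named genes. It was 27 of 45 at GGACA against 64.1%, 5 of 31 at GGACT against 23.3%, and 4 of 24 at GGACC against 21.4%.

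**Figure D1:**
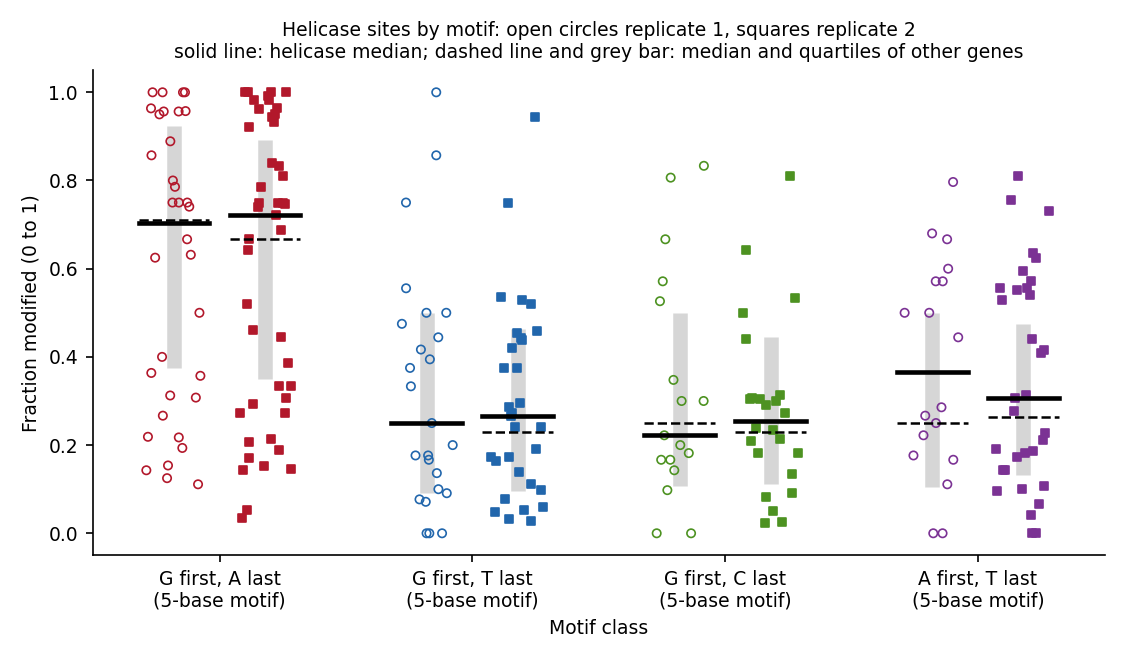
Fraction modified (0 to 1) at each helicase site, by motif class named by its first and last letter (G and A for GGACA, G and T for GGACT, G and C for GGACC, A and T for AGACT). Open circles are replicate 1 and filled squares replicate 2, solid lines are helicase medians, and dashed lines with grey bars are medians and quartiles of other genes. The class ending in A is highest, with medians of 0.704 and 0.722, and the class that begins with A lies above its dashed line in both libraries.

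The libraries differed less at sites with 20 reads in both, called deep sites here, than at sites with fewer reads in replicate 1. At the 38 deep sites the SD of the difference, replicate 2 minus replicate 1, was 0.0714 and the median difference -0.0308. Replicate 2 was higher at 11 of these sites, lower at 26 and equal at 1. Over all named genes it was lower at 52.5% of 5178 such sites, and the median difference in other genes was -0.0043. Whether the helicase share differs from this was not tested, since sites of a gene share reads. Pearson's r across these sites was 0.971 and Spearman's rho 0.959, as a description, since sites of 1 transcript share reads. At 56 sites with 5 to 19 reads in replicate 1 the SD was 0.184 and r was 0.827. In other genes the SD was 0.0998 at 5140 deep sites and 0.183 at 6801 shallower ones.

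A difference above 0.2 was seen at 1 of the 38 deep helicase sites, against 5.93% of all sites with 20 reads in both. At sites with fewer than 20 reads in replicate 1 the order was the other way, with 17 of 56 helicase sites (30.4%) against 23.0% in other genes. Over all 94 sites listed in both it was 18 (19.1%), against 15.6%. The deep site was the GGACA at position 1177 of Dhx15, with 0.741 over 40 reads in replicate 1 and 0.519 over 112 in replicate 2. The next were a GGACT at position 309 of Ddx39a (0.475 and 0.295), a GGACA at position 591 of Ddx41 (0.312 and 0.151), the AGACT at position 3973 of Ddx17 (0.680 and 0.540) and a GGACA at position 1406 of Ddx19a (0.632 and 0.750). Of these 5 sites only the last was higher in replicate 2.

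**Figure D2:**
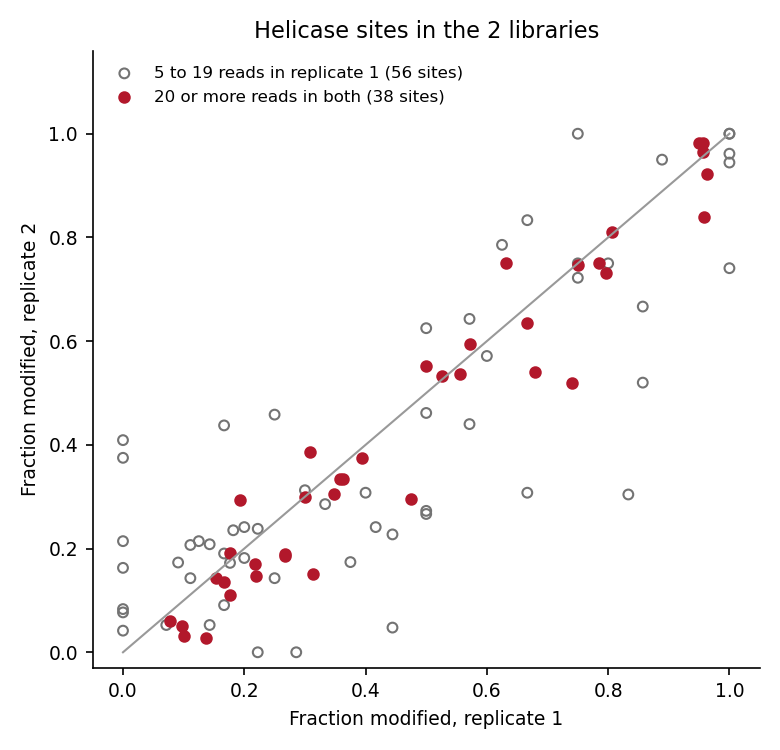
Fraction modified in replicate 1 (horizontal) against replicate 2 (vertical) at the 94 helicase sites listed in both, with the line of equal values. The 38 filled points have 20 or more reads in both libraries and lie nearer the line (SD of the difference 0.0714) than the 56 open points with 5 to 19 reads in replicate 1 (0.184).

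To compare genes with different motifs, each fraction was set against the median of other genes at the same motif in the same library. Of the 133 helicase sites, 74 lay above that median in replicate 2, 58 below and 1 on it. The share above was 55.6%, beside 49.5% of 16112 sites of all named genes, and the median deviation was 0.0419 beside 0. In replicate 1, 48 of 94 lay above, with a median of 0.0238. The spread was wide, with quartiles of -0.153 and 0.255 in replicate 2. Of 18 helicase genes with at least 3 sites, 12 had a positive mean deviation, against 57.3% of all 2472 such genes. In 15 of the 18 the highest and lowest site differed by more than 0.5, against 74.5%, with a median of 5.5 sites per helicase gene and 5 per gene overall. A wide range within a gene is thus common in these tables.

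**Figure D3:**
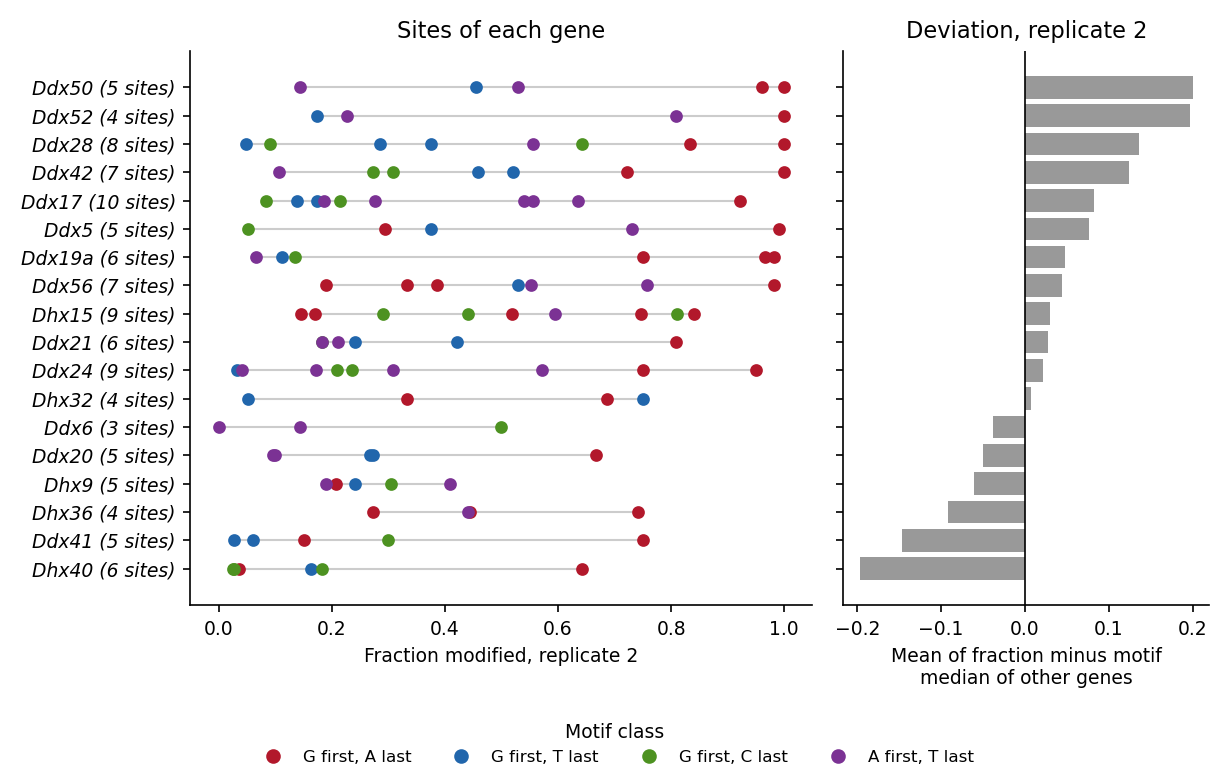
Left, fraction modified in replicate 2 at each site of the 18 helicase genes with at least 3 sites, coloured by motif class. Right, the mean over a gene's sites of the fraction minus the motif median of other genes, from 0.2 for Ddx50 to -0.197 for Dhx40. In 15 of the 18 genes the sites span more than 0.5, as in 74.5% of all genes with at least 3 sites.

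Among 11 helicases of splicing, 9 had 31 sites, of which 19 lay above the motif median in replicate 2. For this and the role counts that follow, the share above was 49.5% over all named genes and 55.6% over all helicase sites. Whether role groups differ from these shares was not tested. The median deviation was 0.0357 in replicate 1 and 0.0654 in replicate 2 over the 23 sites listed in both. Dhx15 (chromosome 5, 52307545 to 52347856, transcript ENSMUST00000031061.11) had 9 sites, and 7 of them had at least 20 reads in both. Their mean was 0.578 ± 0.0438 (SD, n = 2). Its 5 GGACA sites ran from 0.146 at position 1652 to 0.840 at position 2171 in replicate 2, and from 0.217 to 0.957 in replicate 1. Its GGACC at position 1591 was the highest deep site of that motif among helicases, with 0.806 over 45 reads and 0.810 over 123 reads. The AGACT at position 649 had 0.571 and 0.595. On this transcript the lowest and the highest site shared a motif.

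Ddx41 (chromosome 13, 55678223 to 55684471), a helicase found in the late spliceosome, had 5 sites, all with at least 20 reads in both libraries. Its GGACT sites at positions 1990 and 2014 had 0.136 and 0.0769 in replicate 1 and 0.0270 and 0.0600 in replicate 2. Its GGACA sites had 0.786 and 0.750 at position 346, yet 0.312 and 0.151 at position 591. Its GGACC at position 1566 had 0.3 in both libraries. The mean deviation over its sites was -0.112 in replicate 1 and -0.147 in replicate 2, below 0 in both. Ddx39b, a helicase of splicing and mRNA export, had the lowest deep GGACA, with 0.154 over 21 reads and 0.143 over 49 reads at position 2477. Ddx39a, its close relative, had a GGACT at position 1167 with 0.0978 over 116 reads in replicate 2.

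Ddx42 (chromosome 11, 106107752 to 106139965) had 7 sites and a mean deviation of 0.124 in replicate 2. Over the 5 sites listed in both, that mean was 0.221 in replicate 1 and 0.197 in replicate 2, with 9 or 10 reads each in replicate 1. The others carried 1 or 2 sites each. Ddx23, a component of the U5 particle, had a GGACA with 0.933 over 21 reads in replicate 2. Dhx38, which acts at the second step of splicing, had an AGACT at position 4367 at 0 in replicate 2 (25 reads) and 0.286 in replicate 1 (11 reads). Ddx46 had 2 sites and Dhx16 1, with fractions between 0.238 and 0.462 in replicate 2.

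Of 16 helicases of ribosome assembly, 11 had 42 sites, and 25 lay above the motif median in replicate 2. The median deviation was 0.0663 over all 42, but -0.05 in replicate 1 and -0.0225 in replicate 2 over the 29 sites listed in both, so it had no stable sign. Ddx56 (chromosome 11, 6208919 to 6217772, transcript ENSMUST00000004507.10) had 7 sites. Its 4 GGACA sites had 0.333 at position 1180, 0.189 at position 1714, 0.982 at position 1794 and 0.386 at position 1824 in replicate 2. In replicate 1 the values were 0.357, 0.267, 0.957 and 0.308. The site at position 1794 was thus far above the others of its motif in both libraries, including the one 30 nt downstream.

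Ddx24 (chromosome 12, 103374241 to 103392089), a nucleolar helicase, had 9 sites. Its GGACA sites near the 5′ end, at positions 173 and 311, had 0.889 and 0.8 in replicate 1 and 0.95 and 0.750 in replicate 2. The AGACT at position 966 had 0.6 and 0.571, while the AGACT at position 1554 had 0 over 18 reads and 0.0417 over 34. Its GGACT at position 2079 had 0.100 over 21 reads and 0.0323 over 36, the lowest mean of the 2 libraries among deep GGACT sites of helicases. Sites of 1 motif therefore differed along this transcript as well, and in the same order in both libraries.

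**Figure D4:**
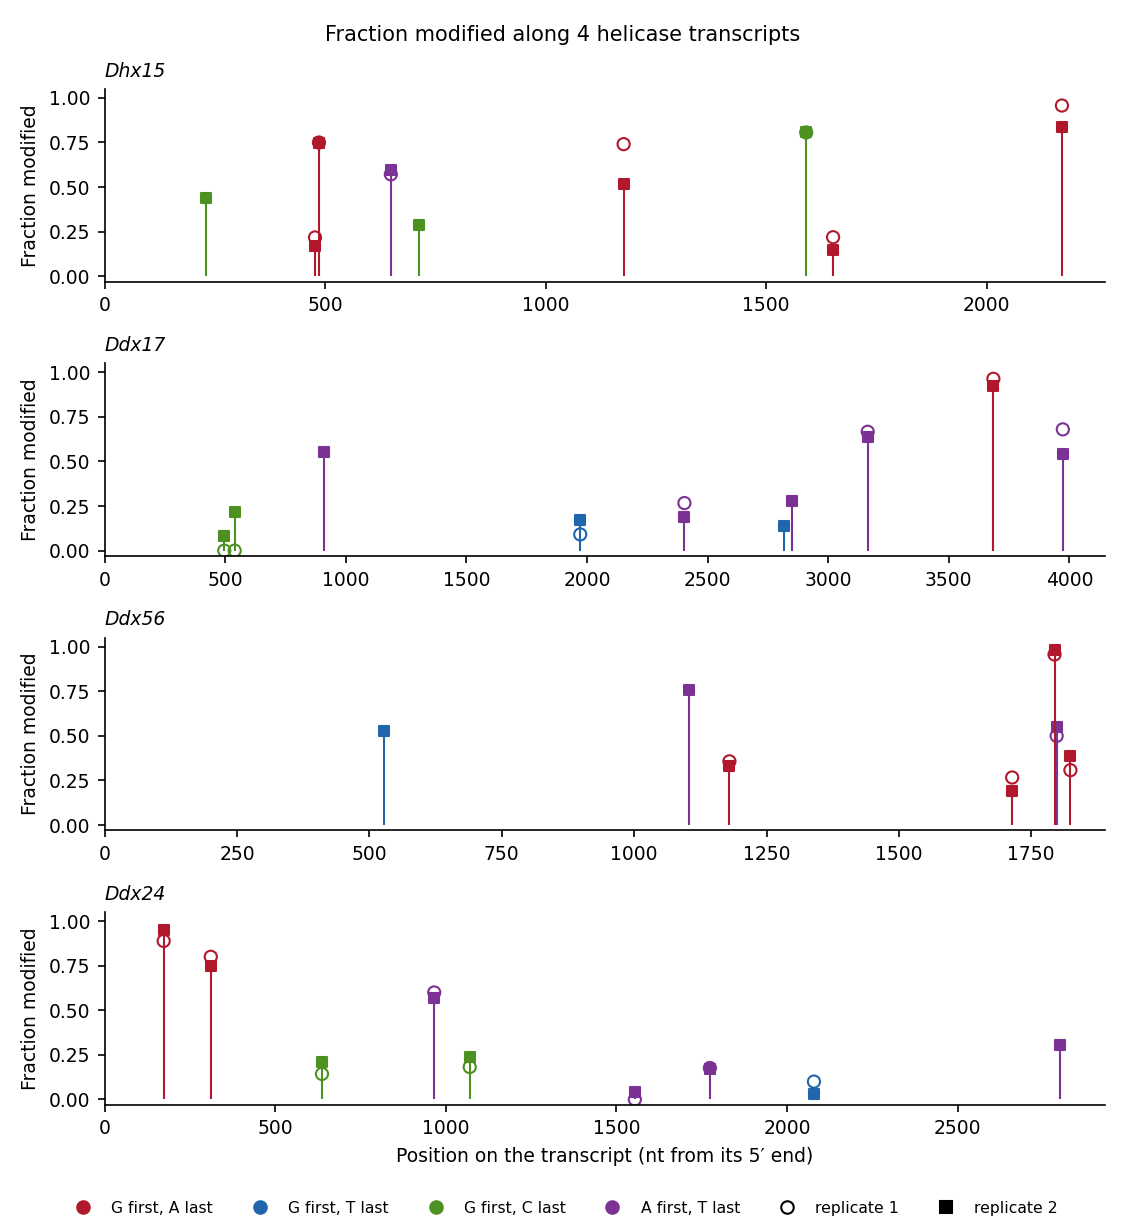
Fraction modified (vertical) by position on the transcript (horizontal, nt from its 5′ end) for Dhx15, Ddx17, Ddx56 and Ddx24, coloured by motif class. Open circles are replicate 1 and squares with stems replicate 2. Sites of the same class differ along a transcript, as for Dhx15 at positions 477 (0.217 and 0.171) and 486 (0.750 and 0.747).

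Ddx50 and Ddx21 are neighbouring paralogues on chromosome 10 whose products act in the nucleolus. Ddx50 (62451674 to 62486997) had the highest mean deviation of the 18 genes, 0.2 over 5 sites in replicate 2. Its GGACA at position 1552 had 1.00 in both libraries, over 18 and 28 reads, and that at position 646 had 1.00 and 0.962. Ddx21 (62416030 to 62438060) had 6 sites with a mean deviation of 0.0271. Its GGACA at position 2495 had 0.810 over 34 reads in replicate 2, and its replicate 1 values rest on 7 reads. Whether the paralogues differ was not tested.

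Ddx52, a helicase of small subunit assembly, had a mean deviation of 0.197 in replicate 2. It includes 2 sites that replicate 1 does not list, a GGACA at position 2033 with 1.00 over 48 reads and an AGACT at position 3045 with 0.810 over 32 reads. Over its other 2 sites the mean deviation was 0.160 in replicate 1 and -0.0458 in replicate 2. Ddx18 had the highest deep GGACT, at position 2120, with 0.556 over 20 reads and 0.537 over 70 reads. Ddx47 had a higher GGACT at position 1535, with 1.00 over 15 reads and 0.944 over 20. Ddx54 stood at the other end, with a GGACA at position 3174 at 0.143 over 14 reads and 0.0526 over 32. Ddx10, Ddx27 and Ddx49 had 1 or 2 sites each, with fractions from 0.190 to 0.786 in replicate 2.

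The helicases of transcription and other nuclear RNA had 26 sites in 5 of 5 genes, with 14 above the motif median. Ddx5 and Ddx17, paralogues known as p68 and p72, act with transcription factors and in splicing and microRNA processing. Ddx17 (chromosome 15, 79411937 to 79430942, transcript ENSMUST00000054014.7) had the most sites of any member, 10. The mean of the 7 listed in both was 0.387 ± 0.00876 (SD, n = 2). The first 2 sites, GGACC motifs at positions 496 and 539, had 0 over 9 and 8 reads in replicate 1 and 0.0833 and 0.214 over 39 reads each in replicate 2. The AGACT at position 910 had 0.556 in replicate 2, and the 4 sites from position 1972 to 2850 had 0.139 to 0.277. Among these, the AGACT at position 2404 had 0.267 over 21 reads and 0.186 over 79, the lowest of the 6 deep AGACT sites. Of the 3 most downstream sites, the AGACT at position 3164 had 0.667 and 0.635, the GGACA at position 3685 had 0.964 and 0.922, and the AGACT at position 3973 had 0.680 and 0.540.

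Ddx5 (chromosome 11, 106671181 to 106680011, transcript ENSMUST00000021062.11) was the most deeply read member. The AGACT at position 635 had 0.797 over 114 reads and 0.731 over 275 reads, the highest deep AGACT among helicases. The GGACC at position 298 had 0.0978 over 107 reads and 0.0514 over 254, the lowest GGACC among deep sites. The GGACT at position 1913 had 0.394 over 176 reads and 0.375 over 373. Of its GGACA sites, position 2670 had 0.194 and 0.293, while position 3148 had 0.991 over 127 reads in replicate 2 and was not listed in replicate 1. Depth was high at these sites, and each of the 4 listed in both differed by 0.1 or less between libraries.

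Dhx9, which unwinds structured RNA in the nucleus, had 5 sites over 2 transcripts, all between 0.190 and 0.409 in replicate 2. Its mean deviation was -0.0364 in replicate 1 and -0.0603 in replicate 2, and its replicate 1 values rest on 9 to 18 reads. Single sites of Dhx9 moved further, and in opposite directions. The GGACC at position 487 had 0.833 in replicate 1 and 0.304 in replicate 2. The AGACT at position 4139 of ENSMUST00000186380.6 had 0 and 0.409. Ddx20, a partner of the SMN complex, had a mean deviation of -0.0502 over 5 sites in replicate 2. Over the 3 of them listed in both it was 0.216 in replicate 1 and 0.0267 in replicate 2, so no direction is given. Ddx1 had 1 site, a GGACC at position 1691 with 0.348 over 37 reads and 0.306 over 85.

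The helicases of translation, export and cytoplasmic mRNA fate had 16 sites in 5 of 7 listed genes, with 8 above the motif median. Ddx19a (chromosome 8, 111701628 to 111724432, transcript ENSMUST00000040416.7), of the family that releases mRNA at the nuclear pore, had 6. Its GGACA sites at positions 1313 and 1829 had 0.95 and 0.957 in replicate 1, over 25 and 29 reads, and 0.982 and 0.966 in replicate 2, over 61 and 71 reads. Its GGACC at position 733 had 0.167 and 0.135, and its GGACT at position 1658 had 0.176 and 0.111. The neighbouring gene Ddx19b is a close copy, with at most 5 and 10 reads at its listed positions, and reads could have been divided between them.

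Ddx3x, which unwinds mRNA leaders for translation initiation, had 1 site, a GGACT at position 3843 with 0.443 over 190 reads in replicate 2. Replicate 1 did not list that position, and replicate 2 did not list the 2 positions seen in replicate 1. Dhx36, which resolves G-quadruplexes, had 4 sites with a mean deviation of -0.0914 in replicate 2. Over the 2 sites listed in both it was 0.306 in replicate 1, over 5 and 7 reads, and 0.125 in replicate 2. Ddx6, a helicase of mRNA decapping and translational repression, had 3 sites over 2 transcripts between 0 and 0.5. Dhx29 had 2, with fractions of 0.214 and 0.312 in replicate 2.

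Ddx28 (chromosome 8, 106736253 to 106738514) acts in the assembly of the mitochondrial ribosome and had 8 sites, 6 of them above the motif median. The GGACA at position 2216 had 1.00 over 9 reads in replicate 1 and over 24 in replicate 2. The GGACC at position 2060 had 0.571 and 0.643. The mean deviation over the 7 sites listed in both was 0.0733 in replicate 1 and 0.113 in replicate 2. Dhx40 (chromosome 11, 86659672 to 86698572) had the lowest mean deviation of the 18 genes with at least 3 sites, -0.197 over 6 sites. Its GGACC sites at positions 936 and 2507 had 0.0244 over 41 reads and 0.0263 over 53 in replicate 2, and its GGACA at position 401 had 0.0357 over 39. The GGACA at position 1331 had 0.643 over 43 reads and the GGACC at position 1396 had 0.182 over 43, both close to the motif medians. Only the GGACT at position 2546 was listed in both libraries, with 0 over 18 reads and 0.163 over 54, so the gene's mean deviation rests on replicate 2. Dhx32 and Dhx40, whose roles were not assigned, had 10 sites together, of which 2 lay above the motif median, with a median deviation of -0.122 in replicate 2. Over the 4 listed in both it was -0.214 in replicate 1 and -0.122 in replicate 2. Dhx32 had 4 sites, from 0.0526 to 0.750 in replicate 2.

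A fraction of at least 0.9 in both libraries was seen at 8 of the 94 helicase sites listed in both, against 8.92% of all such sites. Of these, 7 were among the 34 GGACA sites, against 20.1% of all GGACA sites, so both shares were near the background. The 8 sites lay in Ddx17, Ddx28, Ddx47 and Ddx56 with 1 site each, and in Ddx19a and Ddx50 with 2 each. The remaining 13 listed genes had no site, with at most 19 reads at any position of replicate 2. They were Ddx11, Ddx19b, Ddx25, Ddx31, Ddx51, Ddx55, Ddx59, Dhx8, Dhx30, Dhx33, Dhx35, Dhx37 and Dhx57. Dhx30 was listed at 27 positions in replicate 2, none above 10 reads. A further 7 names that fit the rule appear in the RefSeq gene list but in neither table: Ddx3y, Ddx4, Ddx43, Ddx58, Ddx60, Dhx34 and Dhx58. A position could be listed only from 5 reads, so this does not separate low expression from unlisted motifs.

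RNA helicases with other names were taken from a list of 23 symbols, of which 12 were listed and 8 had a total of 22 sites. In replicate 2, 10 of these lay above the motif median of other genes and 12 below, with a median deviation of -0.0648. In replicate 1, 8 of the 12 listed there lay above, with a median of 0.208. The 2 medians cover different sets of sites, so no direction is given. Eif4a3, the helicase of the exon junction complex, had 2 sites with 0.0943 and 0.107 in replicate 2. Snrnp200, the helicase that unwinds U4 from U6, had 5 between 0.0513 and 0.917.

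Direct RNA reads start at the poly(A) tail, so that depth along a transcript is part of each site's precision. Of 16 helicase transcripts with at least 4 sites, 13 had more reads in replicate 2 at the last site than at the first, 3 of them by only 1 or 2 reads. Over all 1835 such transcripts the share was 83.3%, so the helicase share was near the background. On Ddx17 the reads went from 39 at position 496 to 165 at position 3973, and in replicate 1 from 9 to 68. Ddx5 differed: reads went from 373 at position 1913 to 113 at position 2670 in replicate 2, and from 176 to 47 in replicate 1, a ratio of 0.303 and 0.267. A ratio below 0.8 between neighbouring sites was seen in 4 of 97 helicase pairs in replicate 2 (4.12%), in Ddx5, Ddx42, Ddx46 and Ddx52, and in 2.17% of 11543 pairs of other genes. The cause was not tested. The GGACA sites of Ddx5 at positions 2670 and 3148 therefore describe fewer of its reads than the upstream sites do.

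**Figure D5:**
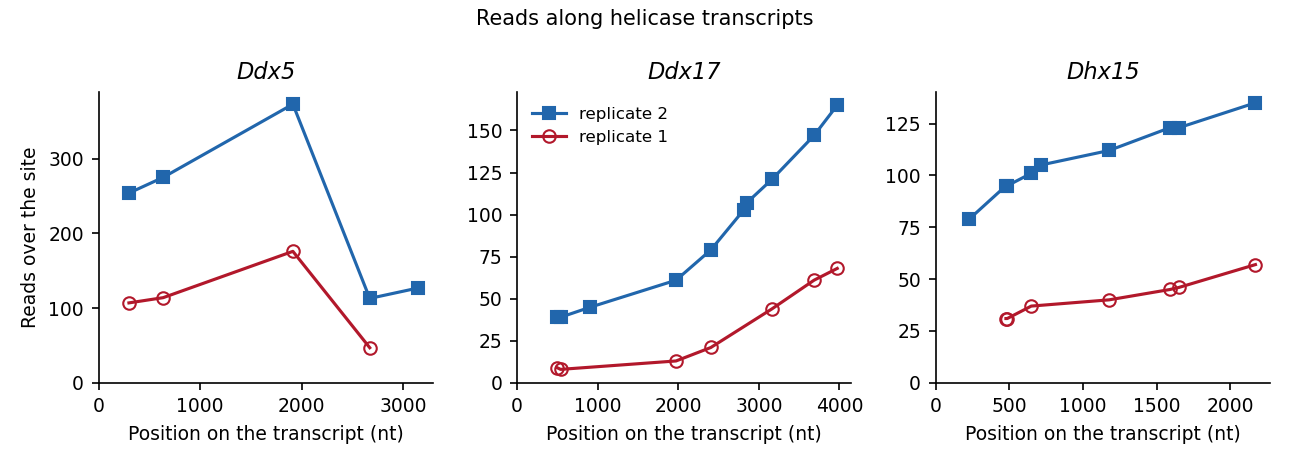
Reads over each helicase site (vertical) by position on the transcript (horizontal, nt) for Ddx5, Ddx17 and Dhx15, with replicate 1 as open circles and replicate 2 as squares. Ddx17 and Dhx15 gain reads toward the 3′ end, while Ddx5 goes from 373 to 113 reads in replicate 2 and from 176 to 47 in replicate 1 between positions 1913 and 2670.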

How the data were processed

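Poly(A) RNA of 2 libraries of 1 group was measured. The deposited tables hold, per the file headers, a count of reads (coverage) and a fraction modified at each transcript position. The fraction's denominator is not given, and 36.3% and 31.5% of the helicase fractions in replicates 1 and 2 were whole multiples of 1 over the reads (tolerance 0.0001), so no interval was set on a fraction. The submitters' processing notes list mm10. The base caller, aligner and modification caller are not given in the sources used here. Gene coordinates are as deposited. Their build is not named, and none of 46 helicase starts lay within 1000 bases of RefSeq's GRCm38.p6, so the 2 were not combined. The minus tables hold 0 helicase positions and were not used.

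Positions were matched on transcript version and loc_end. The base that loc_end marks within a motif is not given. For the printed sequences it was taken to be the same base in every motif: the shared letters fitted in all 58 overlapping pairs of replicate 2. Sites on several transcripts of 1 gene (3 helicase genes) may be the same base. Medians, SDs, Wilson intervals and exact permutation tests were computed with Python 3.11.15, pandas 2.3.3 and scipy 1.17.1, and the scripts were tested on simulated data. Named are the 12 genes with most sites, the 6 highest and 6 lowest mean deviations among genes with at least 3 sites, the 3 highest and lowest deep sites per motif and the 5 largest differences. Other members were named so that all are accounted for. The members and lists were chosen with earlier results of these data known. A marker of the eye-field list is not reported here.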

Additional observations from a re-analysis of the deposited data

Results flagged for a closer look

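Data outside the main measurement held 9 helicase positions with at least 20 reads in replicate 1 that replicate 2 does not list, although replicate 2 is deeper. They are 19.1% of the 47 helicase positions with 20 reads in replicate 1, beside 1210 of 6361 in other genes, so the share is near the background. For 4 of them, replicate 2 lists positions with at least 20 reads on both sides. The GGACC at position 1751 of Dhx15 had 0.176 over 48 reads in replicate 1, and replicate 2 had 123 and 135 reads at the nearest listed positions. The GGACC sites at positions 1017 and 1259 of Ddx56 had 0.0714 and 0.467, over 22 and 23 reads. The GGACA at position 2179 of Ddx24 had 0.938 over 22 reads. The other 5 were an AGACT at position 2390 of Ddx19a (0.667 over 38 reads), a GGACC at position 2507 of Dhx15 (0.273 over 60), a GGACC at position 253 of Ddx49 (0.385 over 25), a GGACA at position 4215 of Dhx9 (0.9 over 21) and a GGACT at position 749 of Ddx39b (0.0222 over 112).

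In the other direction, 39 of the 133 sites (29.3%) were not listed in replicate 1, beside 25.3% in other genes. By motif the share was 15 of 33 (45.5%) at AGACT, beside 31.3% in other genes, and 11 of 45 (24.4%) at GGACA, beside 21.6%. It was 7 of 24 (29.2%) at GGACC, beside 29.1%, and 6 of 31 (19.4%) at GGACT, beside 22.7%, so the order differed between motifs. Of these 39, 5 (12.8%) lay between replicate 1 positions with at least 20 reads each, beside 333 of 4038 (8.25%) in other genes. Reads at the unlisted positions themselves are not known here. They were positions 2817 and 2850 of Ddx17, 1628 of Ddx19a, 1103 of Ddx56 and 714 of Dhx15. Why a position was listed in 1 library only was not tested.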

How the results depend on the processing

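The count of 133 sites became 308 without a minimum, 44 with 50 reads in replicate 2, 38 with 20 reads in both libraries and 47 from replicate 1 alone. The 33 genes with a site became 12, 13 and 14 under the last 3, by construction of fewer reads. The helicase difference at GGACA was -0.203 with 20 reads in both and -0.0441 with each gene counted once, and ran from -0.006 to 0.0555 when a replicate was left out. At GGACT it was -0.00075 without a minimum, -0.091 with 50 reads, -0.0947 with 20 reads in both and -0.00175 with each gene once, and from 0 to 0.037 without a replicate. At GGACC it was 0.0183 without a minimum, 0.0842 with 50 reads, 0.0933 with 20 in both and 0.0501 with each gene once, and from -0.0278 to 0.0246 without a replicate. The cause was not tested. At AGACT the direction was the same under each alternative run, from 0.0288 to 0.339.

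The share of GGACA was 36.4% with 50 reads, 47.4% with 20 in both and 42.6% from replicate 1. The median over genes of the mean deviation, 0.0286, was 0.0164 without a minimum, 0.0458 with 50 reads, 0.00865 with 20 in both, 0.0327 with 1 transcript per gene and 0.0305 from replicate 1. The SD between replicates, 0.0714 with 20 reads in both, was 0.168 without a minimum and 0.0745 with 50 reads in replicate 2 and 20 in replicate 1. Matching within 5 nt and limiting other genes to the helicases' range of reads turned no direction. No paired analysis was possible because the samples form 1 group, so no groups share replicate numbers. The exact test pairs helicases with other genes within a library, not samples. Low depth limits single fractions, most of all in replicate 1.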

Other observations

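Ddx39b reads were listed on 4 transcripts. Replicate 1 listed a GGACT at position 749 of ENSMUST00000068056.11 with 0.0222 over 112 reads, and replicate 2 listed no position of that transcript. On ENSMUST00000173731.7, by contrast, position 2477 was listed in both, with 21 and 49 reads. Replicate 2 also listed 2 transcripts that replicate 1 does not, with 5 to 7 reads. In replicate 1 the GGACA positions 1327 and 1391 of ENSMUST00000173731.7, both over 15 reads, had 0.111 and 0.875.

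Dhx9 and Ddx6 had AGACT sites on more than 1 transcript. For Dhx9 the fractions were 0.190 over 37 reads at position 4194 of ENSMUST00000042141.11 and 0.409 over 36 reads at position 4139 of ENSMUST00000186380.6 in replicate 2. In replicate 1 they were 0.167 over 13 reads and 0 over 18, in the opposite order. For Ddx6 they were 0 over 41 reads at position 5578 of ENSMUST00000170489.1 and 0.143 over 29 reads at position 5542 of ENSMUST00000217034.1 in replicate 2. Replicate 1 had 0.222 and 0.111, over 11 reads each, again in the opposite order. Dhx32 had GGACA sites on 2 transcripts. In replicate 2 position 2696 of ENSMUST00000033290.11 had 0.333 over 26 reads, and position 2743 of ENSMUST00000140593.8 had 0.688 over 20. Replicate 1 listed only the former, with 0.364 over 20 reads. Whether such sites of Dhx9, Ddx6 and Dhx32 are the same bases of the gene was not analysed here.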
